A study of Mus musculus with 12 samples.

Results

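The miRNAs described here are the mature products of the miR-143 and miR-145 hairpins, which form a smooth muscle cluster, together with miR-145b, chosen by name as 5 rows of a table of 1978 mouse miRNA entries, mmu-mir-143-3p, mmu-mir-143-5p, mmu-mir-145a-5p, mmu-mir-145a-3p and mmu-mir-145b. They are written miR-143-3p, miR-143-5p, miR-145a-5p, miR-145a-3p and miR-145b below. All 5 were in the table. The rule lists them by name and sets no threshold on a measured value, but it was written with earlier results of these data known. Small RNA was sequenced from the colon and the whole blood of 6 male C57BL/6 mice, 8 weeks old when obtained and carrying no engineered allele. Acute colitis was induced in 3 mice (mice 1, 7 and 9) with 1.5% (wt/vol) dextran sulfate sodium (DSS) in drinking water for 7 days, the 3 control mice (mice 2, 4 and 8) drank the same water without DSS, and all were killed on day 8. Each mouse gave 1 colon and 1 blood library, so each tissue compares 3 DSS with 3 control libraries and both tissues come from the same 6 mice. The main tests between tissues treat the 12 libraries as separate, and fits with a term for the mouse are alternatives.

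The sample labels disagree on the grouping. The disease state label marks mice 1, 2 and 4 as colitis and mice 7, 8 and 9 as control, whereas the rule used here and the column names of the published heatmaps put mice 1, 7 and 9 in the DSS group. The grouping by mouse name is used throughout, and values under the disease state label are given where they differ in direction. A second pair of label fields names opposite tissues for every library, and the tissue field was followed. Under it miR-486b-5p, abundant in red blood cells, was the largest entry of all 6 blood libraries.

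MiR-143 and miR-145 are cut from neighbouring hairpins and are best known from smooth muscle and other mesenchymal cells, where they hold down regulators of proliferation and help to keep the contractile state. In the gut wall they are made mainly by the muscle coat and subepithelial stroma rather than by epithelium, and their loss in mice is known to impair epithelial repair after DSS injury. Each hairpin can release a 5p and a 3p strand. For miR-143 the 3p strand is the established functional strand, and for miR-145 it is the 5p strand.

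In GRCm38 (GENCODE M21), Mir143 lies at chr18:61649196-61649258 and Mir145a at chr18:61647825-61647894, both on the minus strand and 1301 bp apart. Neither hairpin overlaps another annotated gene or exon. The long noncoding RNA gene Carmn, known as the host transcript of the cluster, lies 366 bp from Mir143 on the same strand. Bvht, a long noncoding RNA gene known from heart development, lies 352 bp from Mir145a on the plus strand. The nearest protein-coding gene to both is Il17b. Mir145b, although it carries the same number, lies 7.37 Mb away at chr18:69022199-69022273, also on the minus strand and outside any other annotated gene.

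The mature forms differ in length and seed, the bases at positions 2 to 8 that pair with target messages. MiR-143-3p, miR-143-5p and miR-145b are 21 bases long, miR-145a-3p is 22 and miR-145a-5p is 23. MiR-145a-5p and miR-145b share their seed and their first 17 bases, so a read cut short of that point cannot be placed between them. MiR-143-5p shares its seed with miR-1930-3p, which had at most 4 counts in any colon library and at most 6 in any blood library. MiR-143-3p and miR-145a-3p shared a seed with no other entry among the 1405 for which a sequence was given.

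The libraries held 15060553 to 20106226 miRNA counts in colon and 21127134 to 32944792 in blood. Levels below are in CPM, the count of a miRNA per 1000000 counts of its library, with library totals adjusted by TMM factors within a tissue, unless a percent of the total count is named. Levels of different miRNAs can be set side by side without a length correction, since all are of nearly the same length, but adaptor ligation favours some sequences and was not measured. Libraries came from separate mice, so the spread between them is biological as well as technical. In bulk tissue, fewer cells of a type and less miRNA per cell cannot be told apart.

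MiR-143-3p was the most abundant miRNA of the colon in every library. It took 32.0% of the total count in mouse 1, 35.8% in mouse 7 and 32.7% in mouse 9 after DSS, and 32.2%, 25.8% and 30.8% in control mice 2, 4 and 8. The Wilson 95% interval of each share spans less than 0.05 percentage points, for example 25.81% to 25.85% in mouse 4, and covers counting error only. The next most abundant entry was miR-192-5p in the 3 control colons and miR-10a-5p, miR-26a-5p or miR-21a-5p in the DSS colons, and miR-143-3p exceeded it between 3.04-fold (mouse 4) and 6.30-fold (mouse 7).

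The other members were far less abundant in colon. MiR-145a-3p ranged from 4114 to 4739 CPM and miR-143-5p from 323 to 427 CPM over the 6 libraries. MiR-145a-5p spread from 233 to 4576 CPM. MiR-145b had 6, 14 and 26 counts in DSS mice 1, 7 and 9 and 9, 4 and 23 counts in control mice 2, 4 and 8, which is 0.24 to 1.44 CPM. At such depth the exact 95% Poisson interval of the lowest count, 4, runs from 1.09 to 10.24.

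**Figure D1:**
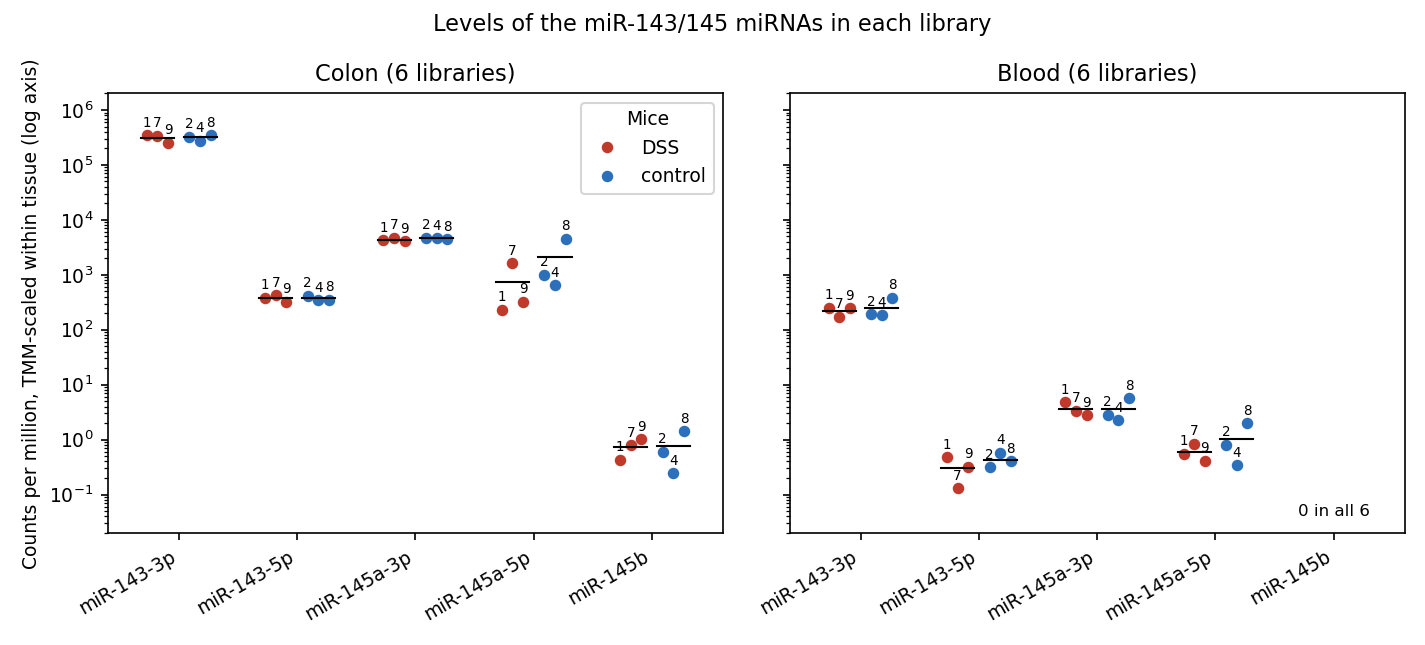
Levels of the 5 members in each colon and blood library (CPM on a log axis, TMM-scaled within the tissue); points are libraries with the mouse number, red for DSS and blue for control mice, and black lines are group means (n = 3). MiR-143-3p lies between 254252 and 350206 CPM in the colon libraries, miR-145a-5p is the member whose colon libraries spread most, and miR-145b has no count in blood.

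The first question was whether the members changed in the inflamed colon. None of the 5 members was significantly differentially expressed (SDE), which here means an adjusted p no higher than 0.05 in edgeR's quasi-likelihood test together with a change of more than 1.5-fold. In the same colon comparison 10.1% of the 542 miRNAs tested were SDE, 5.9% higher and 4.24% lower after DSS. No member had an unadjusted p under 0.05, where 170 of the 542 did. DESeq2 called none of the 5 and 74 over all miRNAs. The DSS and control libraries overlapped for every member, where 38.6% of all tested miRNAs did not overlap between the groups. With only 5 members, these counts say little about the members as a set.

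MiR-143-3p stood at 345305, 343765 and 254252 CPM in DSS mice 1, 7 and 9 and at 329606, 275845 and 350206 CPM in control mice 2, 4 and 8. The lowest library was a DSS mouse and the highest a control mouse, with the rest interleaved. The log2 fold change of DSS over control was -0.02 (SE 0.24, 95% interval -0.58 to 0.54, edgeR adjusted p = 0.961). With scaling by total counts alone the sign turned and the value was 0.18, since the DSS libraries gave 33.5% ± 2.04 (SD, n = 3) of their counts to miR-143-3p and the control libraries 29.6% ± 3.36.

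The colon levels of the other strand and of miR-145a-3p were as close. MiR-143-5p averaged 378 ± 52.0 CPM (SD, n = 3) after DSS and 371 ± 39.1 in controls, a log2 fold change of 0.03 (95% interval -0.32 to 0.38, edgeR adjusted p = 0.899). MiR-145a-3p averaged 4383 ± 322 CPM after DSS and 4616 ± 119 in controls, a log2 fold change of -0.07 (95% interval -0.35 to 0.20, edgeR adjusted p = 0.681). The intervals of these 3 members lay within 1.5-fold of no change, and the sign of each turned under at least 1 other scaling.

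On the log2 scale miR-145a-5p had the largest difference of the 5 members between the DSS and control colons, and also the widest interval. It stood at 233, 1623 and 323 CPM in DSS mice 1, 7 and 9 and at 1008, 645 and 4576 CPM in control mice 2, 4 and 8. Mouse 7 of the DSS group lay above control mice 2 and 4, and control mouse 8 lay above all others. The log2 fold change was -1.52 (SE 0.97, 95% interval -3.80 to 0.77, edgeR adjusted p = 0.316). Leaving out mouse 8 brought it to -0.22 and leaving out mouse 7 to -2.90, so the size rests on those libraries, and no such fit called it. MiR-145b, the member with the same seed, was outnumbered by it 315-fold to 3107-fold in the 6 colons. It averaged 0.74 CPM after DSS and 0.76 in controls (log2 fold change 0.01, 95% interval -1.43 to 1.44), and under the disease state label its log2 value was -1.34 (edgeR adjusted p = 0.991).

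**Figure D2:**
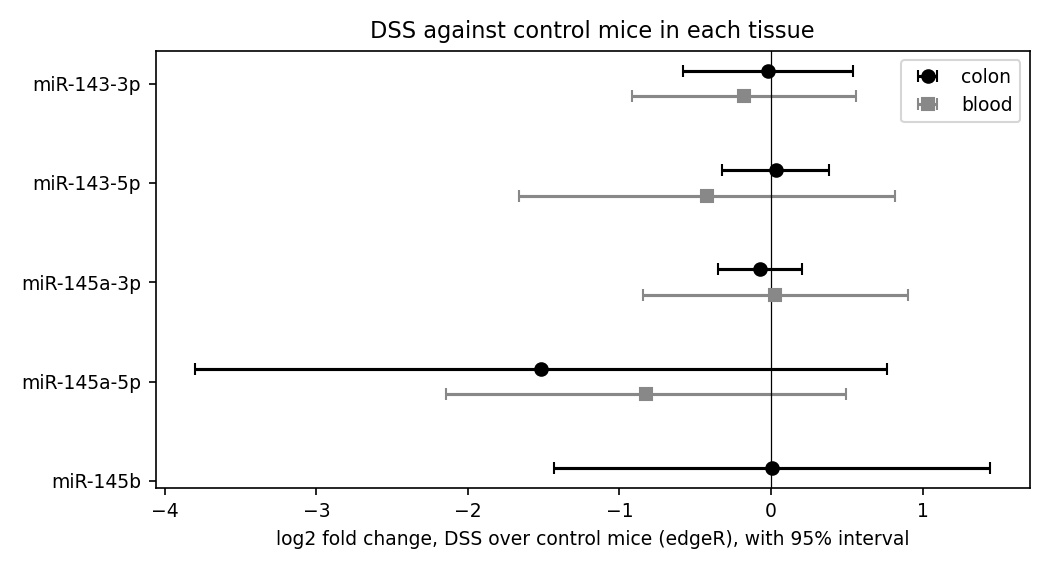
Log2 fold change of DSS over control mice for each member in colon (black circles) and blood (grey squares), with edgeR 95% intervals (3 against 3 libraries). Every interval includes 0, the widest is that of miR-145a-5p in colon, and miR-145b has no blood value.

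The spread of miR-145a-5p stood out from the rest of the colon data. Over the 6 colon libraries the SD of log2(CPM + 1) was 1.57 for miR-145a-5p, against a median of 0.29 over the 139 miRNAs with a mean of at least 100 CPM, and it ranked first of the 139. MiR-10b-5p was next with 1.15. MiR-145a-3p, cut from the same hairpin, had an SD of 0.08 and ranked last of the 139 on this TMM scale, and miR-143-3p and miR-143-5p had SDs of 0.20 and 0.16. As a share of the total count miR-145a-3p ran from 0.395% to 0.529%, a scale on which the SDs were not ranked. This ranking was made after the values had been seen and carries no test.

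**Figure D3:**
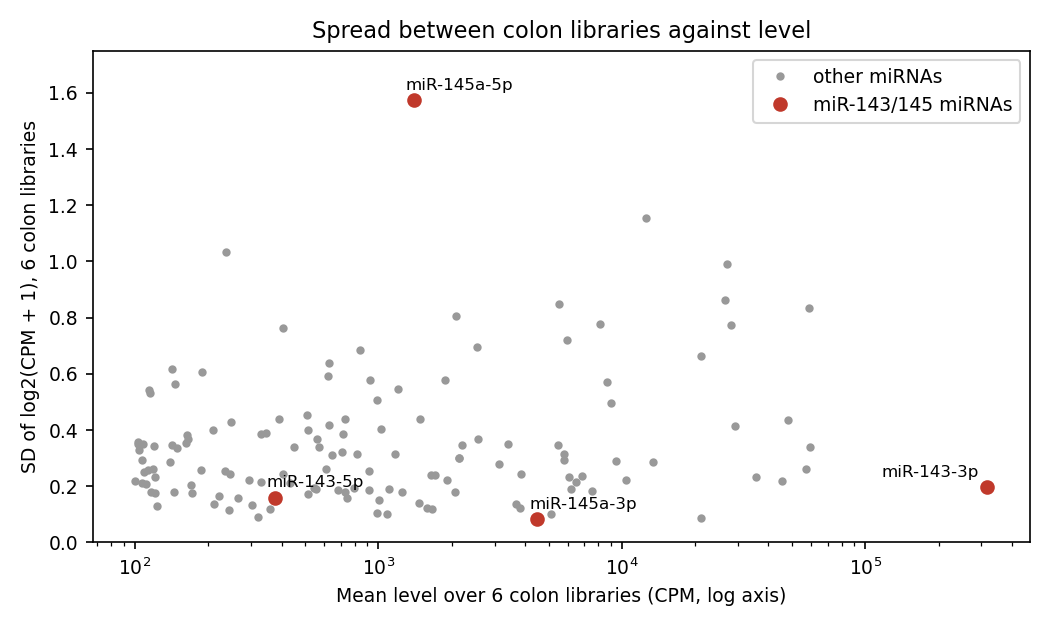
SD of log2(CPM + 1) over the 6 colon libraries against the mean level (CPM, log axis) for the 139 miRNAs with a mean of at least 100 CPM; red points are cluster members. MiR-145a-5p has the highest SD, 1.57, and miR-145a-3p the lowest, 0.08.

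The same contrast appears within each library, where no scaling is needed, as the share of miR-145a counts that belong to the 5p strand. In colon the 5p share was 5.14% in mouse 1, 25.5% in mouse 7 and 7.28% in mouse 9 after DSS. It was 17.6% in mouse 2, 12.2% in mouse 4 and 50.5% in mouse 8 among the controls. The 3p strand thus outnumbered the 5p strand in 5 of 6 colons, by up to 18.5-fold in mouse 1, and the strands were nearly even in mouse 8. The widest of the Wilson 95% intervals of these shares, in mouse 8, was 50.2% to 50.8%, which covers counting error only. The log2 ratio of 5p to 3p was -3.14 ± 1.41 (SD, n = 3) in DSS and -1.68 ± 1.51 in control colons (two-sided exact permutation p = 0.3, adjusted p = 0.8 over 16 ratio comparisons). The difference, -1.46, was -0.60 without mouse 8 and -2.26 without mouse 7. With 3 against 3 libraries such a test cannot go below 0.1.

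Among the 64 hairpins with a mean of at least 100 counts on both strands in colon, miR-145a had the largest SD of the log2 strand ratio, 1.53, with miR-27a next at 0.61 and a median of 0.23. MiR-143 ranked 55th, with an SD of 0.14. In the 6 colons miR-143 kept 786 to 998 counts of the 3p strand for each count of the 5p strand, with a log2 ratio of 9.69 ± 0.10 (SD, n = 3) after DSS and 9.74 ± 0.19 in controls (two-sided exact permutation p = 0.7, adjusted p = 0.8). MiR-143-3p and miR-145a-3p, from the neighbouring hairpins, also kept nearly the same ratio in every colon. Its log2 value was 6.15 ± 0.19 after DSS and 6.10 ± 0.20 in controls (two-sided exact permutation p = 0.7, adjusted p = 0.8, a ratio added after the counts were seen).

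In blood the members were scarce. MiR-143-3p had 10056, 5399 and 5292 counts in DSS mice 1, 7 and 9 and 4306, 3208 and 11231 counts in control mice 2, 4 and 8, which is 0.014% to 0.046% of the total count. That total includes miR-486a-5p and miR-486b-5p, which together took 74.7% to 83.0% of each blood library and 0.25% to 0.44% of each colon library. MiR-145a-3p had 39 to 190 counts, miR-145a-5p 6 to 58 and miR-143-5p 4 to 19. MiR-145b had 0 counts in all 6 blood libraries. Mouse 8 held the highest blood level of miR-143-3p, miR-145a-3p and miR-145a-5p.

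None of the 4 members tested in blood was SDE between DSS and control mice. The background here was 0% of 484 miRNAs by edgeR, although 56 of the 484 had an unadjusted p under 0.05 and DESeq2 called 10 over all miRNAs. DESeq2 gave an adjusted p to 2 of the 4 members, miR-143-3p and miR-145a-3p, and called neither. No member had an unadjusted p under 0.05. MiR-145b did not pass the filter on low counts. The blood log2 fold changes were -0.18 for miR-143-3p (95% interval -0.92 to 0.56), -0.42 for miR-143-5p (-1.66 to 0.82), 0.03 for miR-145a-3p (-0.85 to 0.90) and -0.82 for miR-145a-5p (-2.14 to 0.50). These intervals are wider than in colon for every member except miR-145a-5p, and all 4 members overlapped between the groups, where 17.4% of tested miRNAs did not. Without mouse 8 the log2 value was 0.30 for miR-143-3p and 0.10 for miR-145a-5p.

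The DSS effect was then compared between the tissues in a single edgeR fit of all 12 libraries, as the blood effect minus the colon effect. This fit had no term for the mouse. None of the 5 members in the fit was SDE (0% of 680 miRNAs called, 94 with an unadjusted p under 0.05), and none had an unadjusted p under 0.05. The log2 difference was 0.09 for miR-143-3p (95% interval -0.98 to 1.17) and 0.93 for miR-145a-5p (-1.69 to 3.54), the latter 0.47 without mouse 1 and 2.04 without mouse 7. DESeq2 called 37 of all miRNAs for this difference, none of the 4 members counted in blood among them. MiR-145b, with 0 counts in every blood library, had a fitted difference with an SE of 77.0, which carries no information.

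Between the tissues the difference was large. The fit had no term for the mouse, and values with one are given below. The mean level of miR-143-3p, scaled over all 12 libraries, was 244882 ± 32543 CPM (SD, n = 6) in the colon libraries against 318 ± 135 CPM for blood, a log2 fold change of blood over colon of -9.59 (SE 0.36, edgeR adjusted p = 5.2e-12). The values were -9.21 for miR-143-5p (SE 0.35, edgeR adjusted p = 5.2e-12), -9.46 for miR-145a-3p (SE 0.40, edgeR adjusted p = 7.9e-12) and -9.74 for miR-145a-5p (SE 0.83, edgeR adjusted p = 2e-08). These 4 were SDE and lower in blood in 6 of 6 mice, and no blood library reached a colon library. Of the 680 miRNAs tested, 88.7% were SDE between the tissues, 51% lower and 37.6% higher in blood, 77.1% did not overlap, and the median log2 value was -0.86. From the lowest value, miR-145a-5p ranked 6th of the 680, miR-143-3p 8th, miR-145a-3p 12th and miR-143-5p 15th. MiR-145b had 82 counts over the 6 colons and 0 over the 6 blood libraries, which against a floor of 3 counts over the blood group is at least 41.6-fold lower as a share of the total count. The fit called it lower too (edgeR adjusted p = 3.3e-05), but its fitted fold change depends on the prior count and is not used.

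Within the same mice, on the scale set over all 12 libraries, the blood level was 0.122% of the colon level for miR-143-3p (median, range 0.081% to 0.199%), 0.121% for miR-145a-3p (0.064% to 0.246%), 0.106% for miR-145a-5p (0.071% to 0.526%) and 0.181% for miR-143-5p (0.060% to 0.274%). The percent depends on the scale. With TMM factors within each tissue, an alternative chosen after the data were seen, the medians were 0.070%, 0.070%, 0.067% and 0.108% in the same order, and as shares of the total count they were 0.065%, 0.059%, 0.066% and 0.105%. On each scale the 4 medians lie close together although the colon levels are far apart. Several colon miRNAs of other lists stood at a like percent on the scale over all 12 libraries, among them the epithelial miR-429-3p (0.138%), miR-200a-3p (0.158%) and miR-200b-3p (0.187%) and the muscle miR-1a-3p (0.203%). How the blood counts of these miRNAs arose was not tested.

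**Figure D4:**
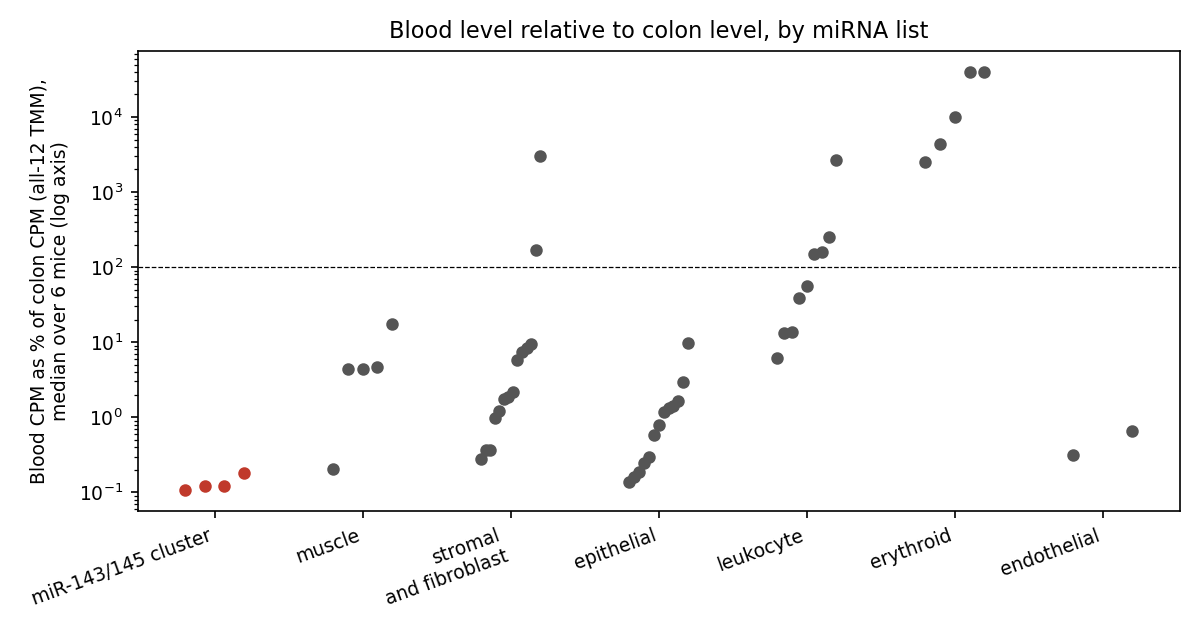
Blood CPM as a percent of colon CPM, both TMM-scaled over all 12 libraries, median over the 6 mice, on a log axis, for the listed miRNAs with a mean of at least 50 colon counts; each point is a miRNA and the dashed line marks equal levels. The 4 cluster members (red) lie between 0.106% and 0.181%, and miR-490-3p, with a median of 0, is not drawn.

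None of the 5 ratios between members that could be compared between the tissues passed the exact permutation test (adjusted p from 0.8 to 0.848). This test treats the 12 libraries as independent, although each mouse gave 1 of each tissue. An exact sign-flip test within mice gave unadjusted p from 0.188 to 0.75. The log2 ratio of miR-145a-3p to miR-143-5p, added after the counts were seen, differed by -0.33 (blood minus colon) over all mice. Without mouse 7 it differed by -0.60 (unadjusted exact permutation p = 0.048, the lowest over all ratios and all mice left out). Without mouse 4 it differed by -0.025 (unadjusted exact permutation p = 0.992). Its blood values rest on 4 to 19 counts of miR-143-5p. Blood held 51.7 to 86.1 counts of miR-143-3p for each count of miR-145a-3p, and colon held 59.5 to 80.4. The log2 ratio was 6.06 ± 0.31 (SD, n = 6) in blood and 6.13 ± 0.18 in colon (two-sided exact permutation p = 0.63, adjusted p = 0.8). The log2 ratio of miR-143-3p to miR-143-5p was 9.32 ± 0.68 in blood and 9.72 ± 0.14 in colon (exact permutation p = 0.186, adjusted p = 0.8), with as few as 4 counts of the 5p strand behind a blood value. That difference, -0.40, was larger than the SD of the colon libraries and smaller than that of the blood libraries. The strand ratio of miR-145a differed by 0.14 on the log2 scale (exact permutation p = 0.848, adjusted p = 0.848).

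The 6 mice stood in nearly the same order by the 5p share of miR-145a in both tissues. In blood it was 10.4% in mouse 1 (Wilson 95% interval 6.95% to 15.2%), 12.9% in mouse 9 (6.91% to 22.7%), 13.3% in mouse 4 (6.26% to 26.2%), 20.0% in mouse 7 (14.03% to 27.7%), 22.2% in mouse 2 (14.5% to 32.4%) and 25.9% in mouse 8 (20.6% to 32.0%). In colon the order was mouse 1, 9, 4, 2, 7 and 8, so that only mice 2 and 7 changed places. The blood range was narrower, and in mouse 8 the blood interval lay wholly below the colon share of 50.5%.

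Over the 6 mice the log2 strand ratio in blood correlated with that in colon with Pearson's r = 0.93 (exact permutation p = 0.0083, adjusted p = 0.042) and Spearman's rho = 0.94 (exact permutation p = 0.017, adjusted p = 0.083). Leaving out mice 1 and 8, the farthest from the median in colon, r was 0.83 over 4 mice. The adjusted values are over 5 ratios related in this way, and the relation was examined after the values had been seen. For the other 4 ratios r ranged from -0.81 to 0.82, with adjusted permutation p between 0.074 and 0.653. A DSS or control group holds too few mice for a value of its own, although within each group the order of the 3 mice was the same in colon and blood.

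**Figure D5:**
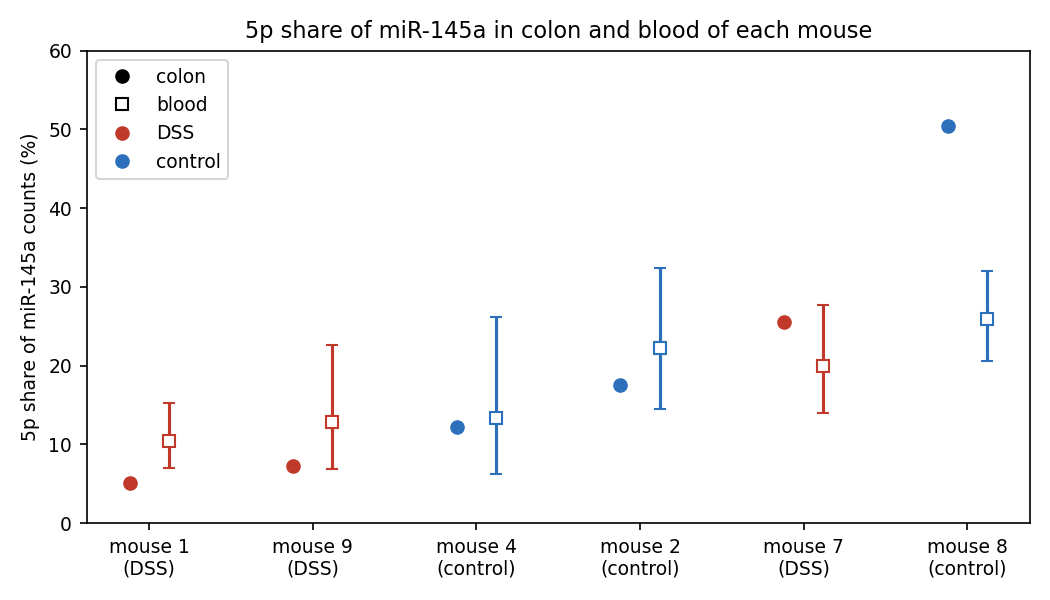
Percent of miR-145a counts on the 5p strand in the colon (filled circles) and blood (open squares) of each mouse, ordered by the colon value; bars are Wilson 95% intervals (counting error only), red marks DSS and blue control mice. The colon share runs from 5.14% to 50.5% and the blood share from 10.4% to 25.9%, with DSS and control mice interleaved.

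MiRNAs with a colon pattern most like the members' were found by Pearson's r of log2(CPM + 1) over the 6 colon libraries, among 268 miRNAs with a mean of at least 10 CPM, as a description. For miR-145a-5p these were miR-181b-5p (r = 0.91), miR-181a-1-3p (0.91), miR-378b (0.91), miR-574-3p (0.90) and the muscle miRNA miR-133b-3p (0.90). Their own SDs, from 0.14 to 0.64, were well under that of miR-145a-5p. For miR-143-3p they were miR-205-5p (r = 0.80), miR-486a-3p (0.77), let-7g-5p (0.77), miR-672-5p (0.76) and miR-122-5p (0.74). The points are the same 6 libraries in every case and share their depth and composition. Among the members themselves r was 0.72 between the strands of miR-143 and 0.57 between those of miR-145a.

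Of 16 entries of the miR-1, miR-133, miR-206, miR-208, miR-499 and miR-490 families, the other muscle miRNAs, 7 were tested between DSS and control colons. None of the 7 was SDE, where 10.1% of all miRNAs were, so the count says little about the list. Their median log2 fold change was -0.36 against 0.04 over all 542 miRNAs. MiR-1a-3p, a miRNA of striated and smooth muscle, stood at 2249, 3009 and 1568 CPM in DSS mice 1, 7 and 9 and at 2878, 2691 and 3023 CPM in control mice 2, 4 and 8 (log2 fold change -0.33, SE 0.23, edgeR adjusted p = 0.349). MiR-133a-3p, made from the same transcripts as miR-1a, stood at 275, 420 and 213 CPM in those DSS mice and at 389, 362 and 417 CPM in the controls (log2 fold change -0.36, SE 0.24, edgeR adjusted p = 0.335). Mice 1 and 9, low in miR-145a-5p, were the lowest in both, but the groups overlapped through mouse 7. In 2 other muscle entries the groups did not overlap, where 38.6% of all 542 miRNAs did not. MiR-133a-5p stood at 2.63 to 4.85 CPM after DSS and 5.43 to 6.71 CPM in controls (log2 fold change -0.65, 95% interval -1.25 to -0.04, edgeR adjusted p = 0.138). MiR-206-3p had a log2 fold change of -0.28 (95% interval -0.66 to 0.09, edgeR adjusted p = 0.259). The summed level of the muscle list was 1854 to 3517 CPM after DSS and 3144 to 3543 CPM in controls, and 5 of its entries, 4 of them 5p strands, had no count in any colon. In blood it was 6.33 to 57.6 CPM.

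Lists for other cell types held SDE entries in colon. Of the 14 stromal and fibroblast entries, 1 was higher and none lower, a share near the 5.9% of all miRNAs called higher. That entry was miR-199a-5p, a fibroblast-rich miRNA, at 2656 ± 126 CPM (SD, n = 3) after DSS and 1734 ± 142.5 in controls (log2 fold change 0.62, SE 0.12, edgeR adjusted p = 0.043). MiR-199a-3p, from the same hairpin, had a log2 fold change of 0.53 (SE 0.12, edgeR adjusted p = 0.043), under the fold threshold. The median over the list was 0.35. Of the 13 epithelial entries, 7 were lower and none higher, where 4.24% of all miRNAs were lower, with a median log2 value of -1.08, the lower entries being miR-182-5p, miR-192-5p, miR-141-3p, miR-183-5p, miR-194-5p, miR-96-5p and miR-429-3p at log2 values of -1.29 to -0.98. MiR-200a-3p and miR-200b-3p, which help to hold the epithelial state, had log2 values of -1.12 and -1.09 (edgeR adjusted p = 0.089 and 0.076). The summed level of the epithelial list was 58329 to 140893 CPM after DSS and 169505 to 211606 CPM in controls.

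Of the 9 leukocyte entries, 4 were higher after DSS and none lower, where 5.9% of all miRNAs were higher, namely both strands of miR-223, a myeloid miRNA (miR-223-3p 1.93, SE 0.41, edgeR adjusted p = 0.043, and miR-223-5p 1.82), and miR-155-5p (1.29) and miR-146a-5p (0.83), which are induced in activated immune cells. The summed leukocyte level was 3026 to 4178 CPM after DSS and 2477 to 3079 CPM in controls. No erythroid or endothelial entry was SDE in colon, with medians of 0.05 over 6 and 0.44 over 2 entries tested. The endothelial entries, miR-126a-3p and miR-126a-5p, did not overlap between the groups (log2 fold changes 0.41 and 0.46, edgeR adjusted p = 0.064 and 0.063), and the erythroid miR-451a had a log2 value of 0.09. In blood, where 0% of all miRNAs were SDE, no entry of these lists was. There miR-126a-3p had a log2 value of -1.45 and miR-223-3p one of 1.31 (edgeR adjusted p = 0.165 for each). The part of these shifts in the members' values was not tested. The summed level of the 5 members was 259014 to 350555 CPM after DSS and 281474 to 359622 CPM in controls. The number of SDE miRNAs in colon, 55, was 0 in the fits without mouse 2, 4, 7 or 8 and 44 and 37 in those without mouse 1 or 9, each fit having 1 library fewer.

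In the tissue comparison the muscle list split. Of the 8 entries tested, 6 were lower in blood and 1 higher, miR-499-5p (log2 fold change 3.94, SE 0.41, edgeR adjusted p = 2e-07), known from heart and slow muscle. The log2 value of miR-1a-3p was -9.05 (SE 0.40, edgeR adjusted p = 1.2e-11) and that of miR-133a-3p was -4.54 (SE 0.63, edgeR adjusted p = 5.4e-06). MiR-206-3p, a skeletal muscle miRNA, did not pass the test (-0.45, SE 0.79, edgeR adjusted p = 0.596). The 13 epithelial entries were all lower in blood, with a median of -6.91, and 12 of the 14 stromal entries were lower, with a median of -5.61. The other 2 stromal entries were higher, miR-140-3p (4.84) and miR-140-5p (0.73). Of the 9 leukocyte entries, 5 were lower and 3 higher, with a median of -0.76. Over all 680 miRNAs 51% were lower and 37.6% higher. The 7 erythroid entries were all higher, with a median of 5.37.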

How the data were processed

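Small RNA was sequenced on an Illumina HiSeq system by the study. Per its methods, adaptors were trimmed, reads were collapsed and mature miRBase miRNAs were counted with the quantifier of miRDeep2. The deposited count table holds these raw counts for 12 libraries, and every per-sample column was used. The authors also deposited normalized counts per tissue, a signal scaled by DESeq2 size factors, which entered alternatives only. The sample labels name GRCm38 as the build. Kits that differ between blood and colon cannot be told apart from tissue.

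Counts were tested with edgeR 4.0.16 (quasi-likelihood, TMM, filterByExpr) in R 4.3.3, within each tissue or over all 12 libraries, with Benjamini-Hochberg adjustment over all miRNAs tested. Alternatives used DESeq2 1.42.0, and limma 3.58.1 on log2(normalized count + 1) and (+ 10). Ratios took 0.5 counts as pseudocount and exact permutation tests (scipy 1.17.1). The count scripts were tested on simulated data. Adjusted p-values from edgeR, DESeq2 and limma come from fits across all miRNAs. Colon depth was 15060553 to 20106226 counts and blood depth 21127134 to 32944792, and intervals from counts cover counting error only.

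The members, lists and tests were chosen with earlier results of these data known. All members are named. The 5 most alike miRNAs are named for miR-143-3p and miR-145a-5p. The rule for list entries was to name those called and the first 2 of each list. It was kept for entries called between DSS and control colons. All other list entries are counted, and those of them named were chosen after their values were seen. Replicate numbers are mouse numbers, so the blood and colon libraries with 1 number come from the same animal. Their deviations from the group means correlated with r between -0.26 and 0.15 over 398 miRNAs. No mature sequence is printed. Alternatives were other scaling factors and filters, identical entries counted once, the disease state label, all libraries in 1 fit, leaving out each mouse, a mouse block and, added later, leaving out miR-486.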

Additional observations from a re-analysis of the deposited data

How the results depend on the processing

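No member's call changed under any alternative that gave it an adjusted p, or without any mouse. This leaves out miR-145b in both comparisons between tissues, for which no alternative is given. In blood DESeq2 gave none to miR-143-5p and miR-145a-5p. The minimum of 10 counts in every library removed miR-145b in colon, and miR-143-5p and miR-145a-5p from every fit with blood. For the 4 members counted in blood, all 78 alternative fits of blood against colon kept the direction and the call, at -10.29 to -8.41 for miR-143-3p (log2, as below). With the replicate block by mouse the values were -9.68 for miR-143-3p, -9.27 for miR-143-5p, -9.60 for miR-145a-3p and -9.51 for miR-145a-5p, and the block changed no call of these 4 members. It moved the count of all miRNAs whose DSS effect differed between the tissues from 0 to 1. Uncalled DSS values turned their sign in 25 of 94 alternative fits in colon, 12 of 78 in blood and 13 of 70 for the tissue difference. They include miR-145a-5p in blood without mouse 8 (0.10 from -0.82) and miR-143-5p in blood under the disease state label (0.67 from -0.42). The cause was not tested.

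In colon miR-143-5p was -0.032 with RLE factors, -0.078 with upper-quartile factors, -0.017 with at least 10 counts in every library, -0.039 by DESeq2, -0.043 by limma with either pseudocount and -0.011 in 1 fit of all libraries. MiR-145b was -0.056 with RLE factors, -0.11 with upper-quartile factors, -0.082 by DESeq2 and -0.031 in the fit of all libraries. With total counts alone miR-143-3p was 0.18 and miR-145a-3p 0.14. Under the disease state label the colon values were 0.0038 for miR-143-3p, 0.034 for miR-145a-3p and -1.34 for miR-145b, and the blood values 0.67 for miR-143-5p and -0.25 for miR-145a-3p. In blood miR-145a-3p was -0.00025 with the count minimum and -0.0053 with identical entries counted once, and miR-143-3p was 0.034 in 1 fit of all libraries. For the tissue difference miR-143-3p was -0.27 with RLE factors, -0.20 with total counts alone, -0.020 with the count minimum and -0.26 by DESeq2, and the disease state label gave -0.41 for miR-143-3p, 0.53 for miR-143-5p and -0.33 for miR-145a-3p. Under that label the log2 ratio of miR-143-3p to miR-143-5p in blood was -1.02, that of miR-145a-3p to miR-143-5p -1.01, and that of miR-143-3p to miR-145a-3p in colon -0.023.

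Without each mouse in turn, colon values ran from -0.13 to 0.11 for miR-143-3p, -0.066 to 0.13 for miR-143-5p, -2.90 to -0.22 for miR-145a-5p and -0.43 to 0.84 for miR-145b. Blood values ran from -0.30 to 0.30 for miR-143-3p, -0.92 to 0.0074 for miR-143-5p, -1.14 to 0.10 for miR-145a-5p and -0.17 to 0.58 for miR-145a-3p. The tissue difference ran from -0.14 to 0.57 for miR-143-3p, -0.82 to 0.39 for miR-143-5p, 0.47 to 2.04 for miR-145a-5p and -0.017 to 1.02 for miR-145a-3p. Among the log2 ratios, the DSS difference in colon ran from -0.11 to 0.057 for miR-143-3p over miR-143-5p, from -2.26 to -0.60 for miR-145a-5p over miR-145a-3p, from 0.75 to 2.29 for miR-143-3p over miR-145a-5p and from -0.053 to 0.15 for miR-143-3p over miR-145a-3p. Blood minus colon ran from -0.59 to -0.20 for miR-143-3p over miR-143-5p, from -0.60 to -0.025 for miR-145a-3p over miR-143-5p (unadjusted exact permutation p = 0.048 without mouse 7 and 0.992 without mouse 4), from -0.060 to 0.47 for miR-145a-5p over miR-145a-3p, from -0.51 to 0.098 for miR-143-3p over miR-145a-5p and from -0.18 to 0.037 for miR-143-3p over miR-145a-3p. The count of SDE miRNAs in colon, 55, was 16 with RLE factors, 8 with upper-quartile factors, 76 without a filter, 74 by DESeq2, 35 with identical entries once, 29 and 24 by limma, 0 in 1 fit of all libraries and under the disease state label, and 0 to 44 without a mouse. In blood the count, 0, was 25 without a filter, 10 by DESeq2 and 1 in 1 fit of all libraries or without mouse 2. For the tissue difference it was 8 with RLE factors, 27 without a filter, 3 with the count minimum, 37 by DESeq2 and 2 without mouse 1. For blood against colon, 603 became 244 with the count minimum.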
